A study of Arabidopsis thaliana with 6 samples.

Results

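The genes described here lie in the pericentromeric heterochromatin of Arabidopsis thaliana, the condensed chromatin on both sides of each centromere. They were taken by position: every gene with a test in the authors' deposited tables whose start falls within bases 14300000 to 15900000 of chromosome 1, 2600000 to 4600000 of chromosome 2, 12600000 to 14600000 of chromosome 3, 3000000 to 4800000 of chromosome 4 or 10900000 to 12800000 of chromosome 5 (TAIR10). This gave 140 genes of 23540 with a test, after 1 gene of the chromosome 2 window was left out. No measured change enters this rule, but the windows were chosen with earlier results of these data known.

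RNA of whole Col-0 seedlings, 14 days old and grown in long days at 22 °C, was sequenced for 3 genotypes, each with 2 libraries: wild type (WT), jmj28, which is a mutant, and JMJ28np5-OE, a line in which JMJ28 RNA was raised. The sources used here do not give the allele of jmj28, what np5 stands for or the promoter that drives the line. JMJ28 (AT4G21430, listed as B160) belongs to the JmjC-domain proteins of the KDM3 type, which remove methyl groups from lysine 9 of histone H3. The comparisons show which of these genes changed when JMJ28 was reduced or raised.

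Methylated lysine 9 of histone H3 and DNA methylation mark the pericentromeric heterochromatin of plants and keep its transposons silent. Most of the sequence there consists of transposons, repeats and arrays of ribosomal RNA genes, with scattered protein-coding genes between them. In Col-0 the pericentromere of chromosome 2 also carries a large copy of the mitochondrial genome, placed there by transfer of organelle DNA into the nucleus.

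JMJ28 RNA followed the labels. In WT it had 399 reads in the deeper library and 273 in the shallower one, against 8865 and 9579 in JMJ28np5-OE. The authors' deposited tables give a log2 fold change of -1.10 for jmj28 against WT (FDR 3.07e-08) and 5.38 for JMJ28np5-OE against WT, so the mutant kept part of the RNA. Library totals ran from 10632893 to 19693228 reads. Reads per library were recovered from the deposited genotype means in RPKM (reads scaled to exon length in kilobases and to library total) for the highest and second-highest genotype of a gene, while the lowest is known as a mean implied by the deposited fold change. Over genes above 5 RPKM, the SD of the log2 ratio of a genotype's libraries was 0.18 for WT, 0.18 for jmj28 and 0.27 for JMJ28np5-OE. Nothing in the labels says that the 2 libraries of a genotype came from separate cultures, so p-values measure the spread between these samples, which may be technical.

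Markers of organs also differed between genotypes in the authors' deposited tables. Of 8 root markers, 2 were called higher in jmj28 than in WT, 1 higher and 2 lower in JMJ28np5-OE than in WT, and 6 higher and 1 lower in jmj28 than in JMJ28np5-OE. Of 6 flower markers, 2 were called higher in JMJ28np5-OE than in WT, and 4 lower in jmj28 than in JMJ28np5-OE. The 2 leaf markers were called in none of the 3 comparisons. The summed mean of the root markers was 1192, 1298 and 1055 RPKM for WT, jmj28 and JMJ28np5-OE, and that of the flower markers 7.07, 6.39 and 16.4 RPKM. The part of organ makeup in the changes below was not tested, and in whole seedlings fewer cells of a type and less RNA per cell cannot be told apart.

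Few genes of the windows gave reads. Of 918 listed genes, 140 had a test (15.3%), against 23258 of 33021 (70.4%) of the nuclear genes outside. The chromosome 3 window was the poorest, with 16 of 470 genes, and the chromosome 2 window the richest, with 82 of 263. The windows of chromosomes 1, 4 and 5 had 4 of 20, 18 of 66 and 20 of 99. Ribosomal RNA genes made up 435 of the genes without reads, and protein-coding genes 210. Of the 140 genes with a test, 134 are protein-coding, 3 are listed as lncRNA and 3 as ncRNA. The shares with a test mix all gene types. They were not split by type outside the windows or for each window, so they do not compare protein-coding genes alone.

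The 140 genes were of 2 kinds. On chromosome 2, 59 genes matched the mitochondrial genome of the TAIR10.1 reference over at least 90% of their exon length at 95% identity or more (gap positions not counted). They lie between 3239693 and 3503476. Of these 59, 56 matched over the whole exon length, and in 37 the longest match was identical base for base. The lowest identity among the longest matches was 99.4%. A stretch of 150 bases, the length of 1 sequenced read, occurred unchanged in the mitochondrial genome at 94.1% of the positions in their exons. At none of 79686 such positions did this hold in the exons of the other 81 genes. By genome sequence, a single read from such a position matches both places. Sequences of mitochondrial transcripts and the 2 reads of a pair were not compared. The sources used here do not say how reads matching both places were assigned. The deposited mitochondrial genes follow another assembly, to which no match was made.

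Both insertion genes that changed show how close the copies are. AT2G07671 is annotated in RefSeq as an ATP synthase subunit C family protein, and its longest match covers atp9, the mitochondrial gene of the membrane ring of ATP synthase. A stretch of its exon, at chr2:3251909-3251998 on the minus strand of TAIR10.1, has the same 90 bases as positions 271014 to 271103 of the mitochondrial genome.
AT2G07671: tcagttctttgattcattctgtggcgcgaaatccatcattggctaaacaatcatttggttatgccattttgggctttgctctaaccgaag
AT2G07718 has a single exon of 5799 bases whose longest match overlaps nad4, a mitochondrial gene of respiratory complex I, and differs from it at 1 base. The stretches below hold that base, in capitals, at chr2:3429746-3429835 on the plus strand and at positions 203886 to 203975 of the mitochondrial genome on the minus strand.
AT2G07718 nuclear: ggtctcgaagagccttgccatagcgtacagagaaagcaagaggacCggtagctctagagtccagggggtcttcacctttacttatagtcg
AT2G07718 mitochondrial: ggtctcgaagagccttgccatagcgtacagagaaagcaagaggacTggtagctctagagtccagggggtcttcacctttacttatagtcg

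Insertion genes were at the edge of detection. Their highest genotype mean had a median of 0.175 RPKM, and 4 of 59 reached 1 RPKM. AT2G07671 was the highest with 7.10 RPKM, followed by AT2G07698, a copy of atp1, with 1.97 RPKM. AT2G07675, a ribosomal protein S12/S23 family gene, had 1.13 RPKM, and AT2G07725, a ribosomal L5P family gene, 1.02 RPKM. The median was 2 reads in each library of WT, over 48 recovered insertion genes, and of JMJ28np5-OE, over 49. It was 1 and 0 reads in the deeper and the shallower library of jmj28, over 26 recovered genes. A genotype was recovered only where it was the highest or second-highest, so these medians cover different genes and do not compare genotypes.

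The 81 genes outside the insertion were transcribed at ordinary levels. Their highest genotype mean had a median of 9.11 RPKM, against 7.94 RPKM over the other 23258 nuclear genes, and 76.5% reached 1 RPKM, against 81.4%. They stood far from other transcribed genes: the median distance to the nearest gene with reads was 2458 bases, against 166 bases, and 34.6% were at least 10000 bases away, against 0.619%. RPS16A, a cytosolic ribosomal protein gene on chromosome 2, had no other gene with reads within 108562 bases.

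**Figure D1:**
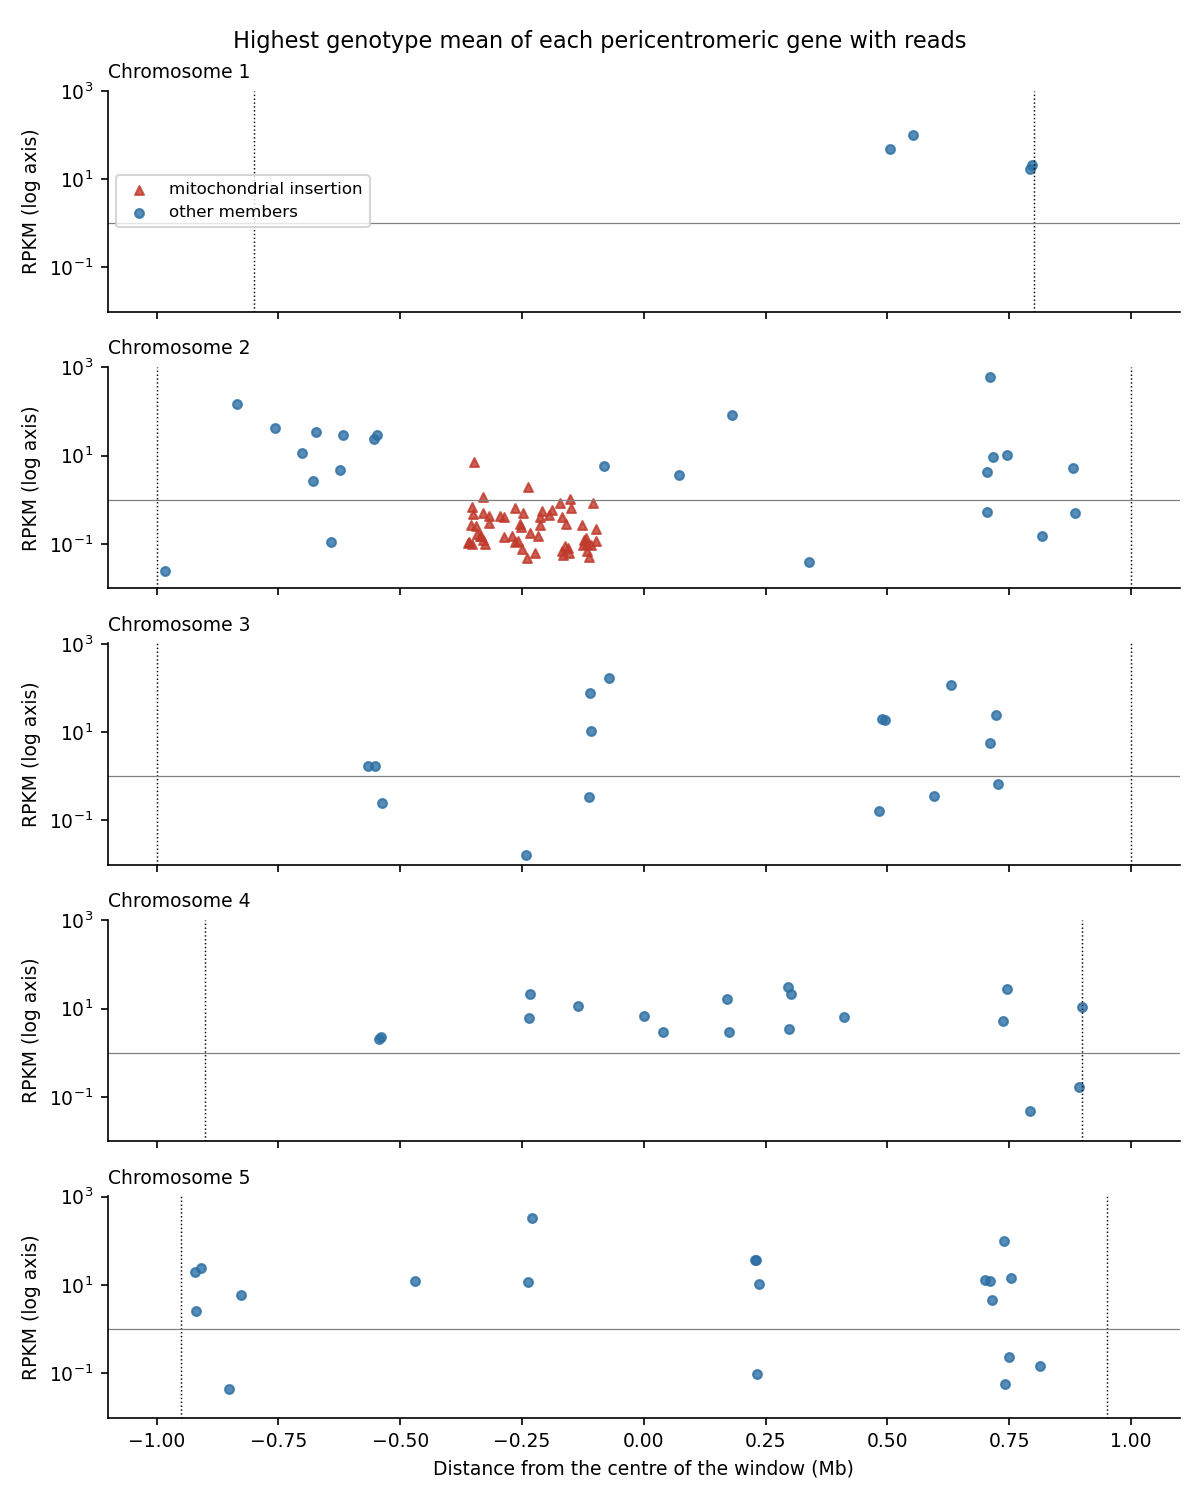
Highest genotype mean of each of the 140 pericentromeric genes with a test (vertical log axis, RPKM) against its distance from the centre of its window in Mb, with 1 panel per chromosome; triangles are the 59 insertion genes, circles the other 81, dotted lines the window borders and the grey line 1 RPKM. The insertion genes form a block of low levels on chromosome 2, while genes above 10 RPKM occur in all 5 windows.

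Of the 10 most abundant genes of the windows, 0 were called in jmj28 against WT and 0 in JMJ28np5-OE against WT in the authors' deposited tables, and 3 in jmj28 against JMJ28np5-OE: XTH4, PPT1 and RPS16A, described further on. Over all tested genes these tables called 1.3%, 3.55% and 11.4% in the 3 comparisons. In the last they called 13.9% of the other nuclear genes of at least 1 RPKM, so 3 of 10 is above both shares, on few genes. AT2G10940, annotated in RefSeq in the bifunctional inhibitor and lipid-transfer superfamily, was the highest, with 606 and 582 RPKM in the deeper and the shallower WT library and 594 and 610 RPKM in jmj28, and an implied mean of 515 RPKM in JMJ28np5-OE. RPS1, the plastid ribosomal protein S1, had 333 and 324 RPKM in WT, 336 and 332 in jmj28 and an implied 309 RPKM in JMJ28np5-OE. For both genes the libraries of WT and jmj28 overlapped, and the authors' deposited tables call neither in any comparison.

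Further abundant genes with basic cell functions were not called either. VHA-H, the H subunit of the vacuolar proton pump, had 112 and 114 RPKM in WT, 114 and 116 in jmj28 and an implied 111 RPKM in JMJ28np5-OE. PER32, a peroxidase gene, had 175 and 149 RPKM in WT, 170 and 171 in JMJ28np5-OE and an implied 159 RPKM in jmj28. In the authors' deposited tables the log2 fold changes of VHA-H were -0.01, 0.00 and -0.01, and those of PER32 -0.06, 0.10 and -0.16, for jmj28 against WT, JMJ28np5-OE against WT and jmj28 against JMJ28np5-OE. SKS6, of the multicopper oxidase-like family, RPL35AB, a cytosolic ribosomal protein gene, and AT3G32930, annotated as a lumazine synthase, reached 49.0, 98.0 and 74.8 RPKM and were called in no comparison.

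Each window held at least 1 gene above 20 RPKM. The highest 2 were RPL35AB and SKS6 on chromosome 1, AT2G10940 and XTH4 on chromosome 2, PER32 and VHA-H on chromosome 3, and RPS1 and PPT1 on chromosome 5. On chromosome 4 they were AT4G07390, annotated as a mannose-P-dolichol utilization defect 1 protein, with 30.4 RPKM, and AT4G07825, an uncharacterized protein, with 27.8 RPKM. The median level of the genes outside the insertion was lowest on chromosome 3, at 3.64 RPKM, and highest on chromosome 1, at 34.9 RPKM over 4 genes.

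In jmj28 against WT, none of the 140 genes was called at an FDR under 0.05 in the authors' deposited table, where 1.3% of all tested genes were (0.208% higher and 1.1% lower in jmj28) and 1.32% of the other nuclear genes (0.211% higher and 1.11% lower). At an unadjusted p under 0.05 there were 7, of which 5 were higher and 2 lower in jmj28. That is 5.0% of the 140, against 8.64% of the other nuclear genes. The median log2 fold change of the 81 genes outside the insertion was 0.00, as it was over the other nuclear genes, and 41 of the 81 were above 0. Among those of at least 1 RPKM the quartiles were -0.08 and 0.12, against -0.12 and 0.12 for the other nuclear genes.

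TPS30, a terpene synthase family gene, came closest to a call in this comparison. It had 32 and 14 reads in the deeper and the shallower WT library and 50 and 41 in jmj28, or 0.789 and 0.475 RPKM against 1.79 and 1.69 RPKM. Both jmj28 libraries were above both WT libraries. In the authors' deposited table its log2 fold change was 1.37 with an FDR of 0.0558, which counts genes without reads among the tests, and it passed when the p-values were adjusted over genes with reads.

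In JMJ28np5-OE against WT, 1 of the 140 genes was called in the authors' deposited table, which called 3.55% of all tested genes (2.87% higher and 0.684% lower) and 3.58% of the other nuclear genes (2.9% higher and 0.684% lower). AT5G33370, a GDSL-like lipase family gene on chromosome 5, was higher in JMJ28np5-OE. It had 298 and 237 reads there, or 15.4 and 14.2 RPKM, an implied mean of 9.54 RPKM in WT, and 10.12 and 9.57 RPKM in jmj28. The level of jmj28 thus sat near that of WT, and both JMJ28np5-OE libraries lay above both jmj28 libraries. The authors' deposited table gives it a log2 fold change of 0.66 and an FDR of 0.00146 against WT. At an unadjusted p under 0.05 there were 9 genes higher, of which 4 are insertion genes, and 7 lower, in all 11.4% of the 140 against 14.2% of the other nuclear genes. The median log2 fold change outside the insertion was 0.00, with 41 of 81 genes above 0.

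In jmj28 against JMJ28np5-OE, 11 of the 140 genes were called, 6 higher and 5 lower in jmj28, in the authors' deposited table, which called 11.4% of all tested genes and 11.5% of the other nuclear genes. Of the 81 genes outside the insertion 9 were called, or 11.1%, and of the 59 insertion genes 2, or 3.39%. By direction, 4.12% of all tested genes were higher and 7.29% lower in jmj28, and 4.15% and 7.35% of the other nuclear genes. The median log2 fold change of the 81 genes was -0.02, against -0.01 for the other nuclear genes. This comparison shares its libraries with the other 2.

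The 6 genes higher in jmj28 than in JMJ28np5-OE had diverse functions. TPS30 changed most, from an implied 0.341 RPKM in JMJ28np5-OE to 1.79 and 1.69 RPKM in jmj28, with a log2 fold change of 2.30 and an FDR of 0.000128 in the authors' deposited table. It is the first gene with reads inside the chromosome 3 window, and its neighbour AT3G32040, also annotated as a terpenoid synthase, had a log2 fold change of -0.20 in that table and was not called. TOR1L2, an ARM repeat gene of the TORTIFOLIA1-like group, had 3.49 and 3.73 RPKM in WT, 4.86 and 4.45 in jmj28 and an implied 2.597 RPKM in JMJ28np5-OE. Both jmj28 libraries were above both WT libraries, and the authors' deposited table gives it a log2 fold change of 0.78 and an FDR of 0.000385 against JMJ28np5-OE.

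PPT1 (also CUE1), which carries phosphoenolpyruvate into plastids, had 83.3 and 85.9 RPKM in WT, 101 and 92.4 in jmj28 and an implied 68.8 RPKM in JMJ28np5-OE. Its jmj28 libraries were both above those of WT, and the authors' deposited table gives jmj28 against JMJ28np5-OE a log2 fold change of 0.44 and an FDR of 3.97e-05, the smallest among the 140 genes. Its exons overlap 66 bases of AT5G33330 on the other strand, which had 0.0585 RPKM, and the kit used does not mark strand.

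AT4G06744, a leucine-rich repeat family gene, RPS16A, and HAT (DAYSLEEPER, AT3G42170), a gene derived from a hAT transposase and needed for normal development, were the other genes higher in jmj28 than in JMJ28np5-OE. AT4G06744 had 14.5 and 14.0 RPKM in WT, 16.6 and 16.9 in jmj28 and an implied 11.3 RPKM in JMJ28np5-OE. RPS16A had 78.6 RPKM in both WT libraries, 87.2 and 81.6 in jmj28 and an implied 65.5 RPKM in JMJ28np5-OE. HAT had 21.7 and 21.0 RPKM in WT, 25.6 and 23.5 in jmj28 and an implied 19.3 RPKM in JMJ28np5-OE. In all 3 genes both jmj28 libraries were above both WT libraries and the implied JMJ28np5-OE mean was the lowest. Their log2 fold changes were 0.51, 0.31 and 0.29, with an FDR of 0.0119, 0.0189 and 0.0468, in the authors' deposited table.

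Of the 5 genes lower in jmj28 than in JMJ28np5-OE, 3 lie outside the insertion. XTH4, a xyloglucan endotransglucosylase/hydrolase that remodels the cell wall, had 131 and 116 RPKM in WT, 127 and 167 in JMJ28np5-OE and an implied 106 RPKM in jmj28. The WT and JMJ28np5-OE libraries overlapped, with the shallower JMJ28np5-OE library above the rest. Its log2 fold change was -0.52 with an FDR of 0.00109 in the authors' deposited table. From its means the log2 ratio was -0.47, and -0.26 without the shallower JMJ28np5-OE library. PBL17, a receptor-like cytoplasmic kinase gene, had 26.5 and 27.5 RPKM in WT, 27.9 and 30.9 in JMJ28np5-OE and an implied 24.3 RPKM in jmj28, with a log2 fold change of -0.33 and an FDR of 0.0151 in that same authors' deposited table. AT5G33370 was lower in jmj28 by 0.64 on the log2 scale (-0.64; FDR 0.00116 in the authors' deposited table).

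**Figure D2:**
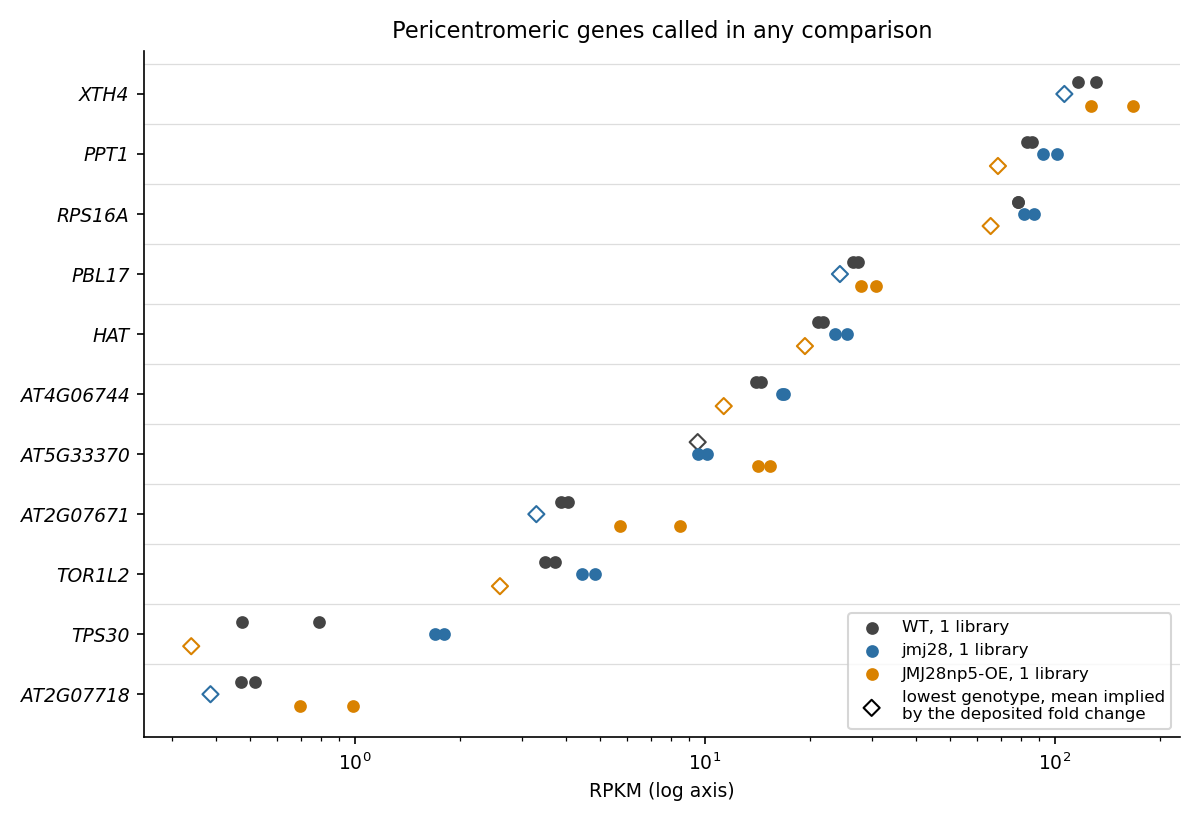
RPKM (log axis) of the 11 pericentromeric genes called in any comparison; filled circles are single libraries of WT, jmj28 and JMJ28np5-OE, and open diamonds the mean of the lowest genotype as implied by the deposited fold change. In TPS30 both jmj28 libraries lie above both WT libraries, and in AT5G33370 both JMJ28np5-OE libraries lie above both jmj28 libraries.

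For 10 of these 11 genes WT lay between the other genotypes, and in AT5G33370 it was the lowest. All 11 were picked by a call between jmj28 and JMJ28np5-OE, which favours genes with WT in between. The same share among the other called genes was not counted, so no graded response can be read from this order. Of the 11, 5 differed at least 1.5-fold in the authors' deposited table: TPS30, TOR1L2, AT2G07671, AT2G07718 and AT5G33370. Leaving out 1 recovered library in turn reversed none of the 26 values this gave over the 11 genes. Except for AT5G33370 in jmj28 against JMJ28np5-OE, only libraries of the higher genotype could be left out. The lower genotype stayed at its implied mean. As the genes were picked by these calls, a reversal was unlikely from the start.

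**Figure D3:**
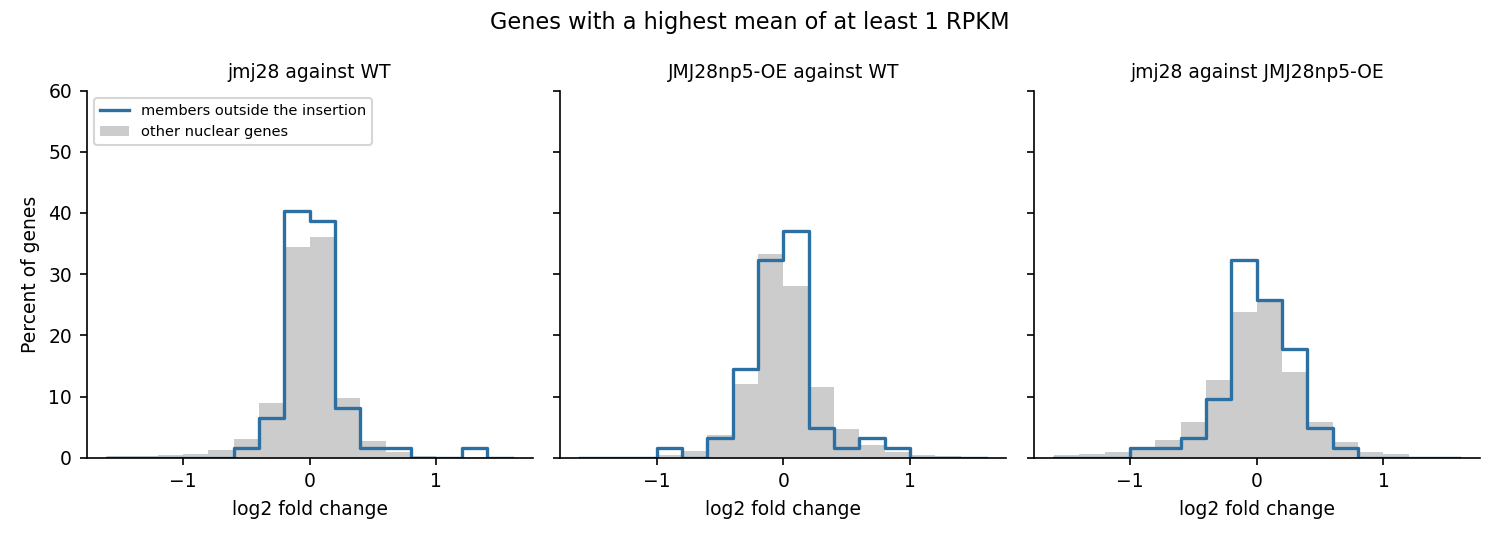
Percent of genes per bin of 0.2 in deposited log2 fold change, for the 62 pericentromeric genes outside the insertion (blue line) and the 18924 other nuclear genes (grey bars) with a highest mean of at least 1 RPKM, in the 3 comparisons. In each panel both distributions centre near 0; TPS30 in jmj28 against JMJ28np5-OE and 97, 100 and 322 other nuclear genes lie outside the plotted range.

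The insertion genes had median changes farther from 0 than the genes around them, at few reads. In the authors' deposited tables their median log2 fold change was -0.40 in jmj28 against WT, 0.47 in JMJ28np5-OE against WT and -1.16 in jmj28 against JMJ28np5-OE. The mitochondrial genes with a test, 76 in number, had medians of -0.48, 0.31 and -0.84 in those same authors' deposited tables. JMJ28np5-OE was the highest genotype for 35 of the 59 insertion genes (59.3%) and 39 of the 76 mitochondrial genes (51.3%). The same held for 28.4% of the 81 genes outside the insertion, 34.5% of the other nuclear genes and 39.3% of other nuclear genes under 1 RPKM.

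The libraries of JMJ28np5-OE differed among themselves. Over the 41 insertion genes with reads recovered in WT and JMJ28np5-OE, the deeper WT library summed to 17.2 and the shallower to 17.3 RPM (reads scaled to library total as in RPKM, but not to exon length). The deeper JMJ28np5-OE library summed to 17.9 RPM and the shallower one to 32.2 RPM, from 222 and 342 reads. The deeper JMJ28np5-OE library was thus close to WT, and the shallower one stood apart. A pair of genotypes was recovered where the third was the lowest or where a single genotype had reads. The values compared thus picked the genes of this sum and of those below. AT2G07671 and AT2G07718, described below, are part of this sum, and AT2G07671 had 55 and 70 of the JMJ28np5-OE reads. Gene by gene, 27 of 44 insertion genes with reads in JMJ28np5-OE were higher in its shallower library (61.4%), and 23 of 38 mitochondrial genes with 1 exon (60.5%), against 49.0% of other nuclear genes under 1 RPKM. The share of insertion genes was nearly as high in WT, at 57.9% of 38, and was 36.8% of 19 in jmj28, so the count of genes does not set the shallower JMJ28np5-OE library apart as the sum does. Other sums gave no fixed order of the JMJ28np5-OE libraries. Over 40 mitochondrial genes recovered in WT and JMJ28np5-OE, the deeper and shallower libraries summed to 5.08 and 4.12 RPM in WT and to 8.32 and 5.36 RPM in JMJ28np5-OE. Over the genes recovered in jmj28 and JMJ28np5-OE, the JMJ28np5-OE libraries summed to 4.77 and 6.30 RPM for 33 mitochondrial genes and to 3.96 and 3.198 RPM for 19 insertion genes.

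**Figure D4:**
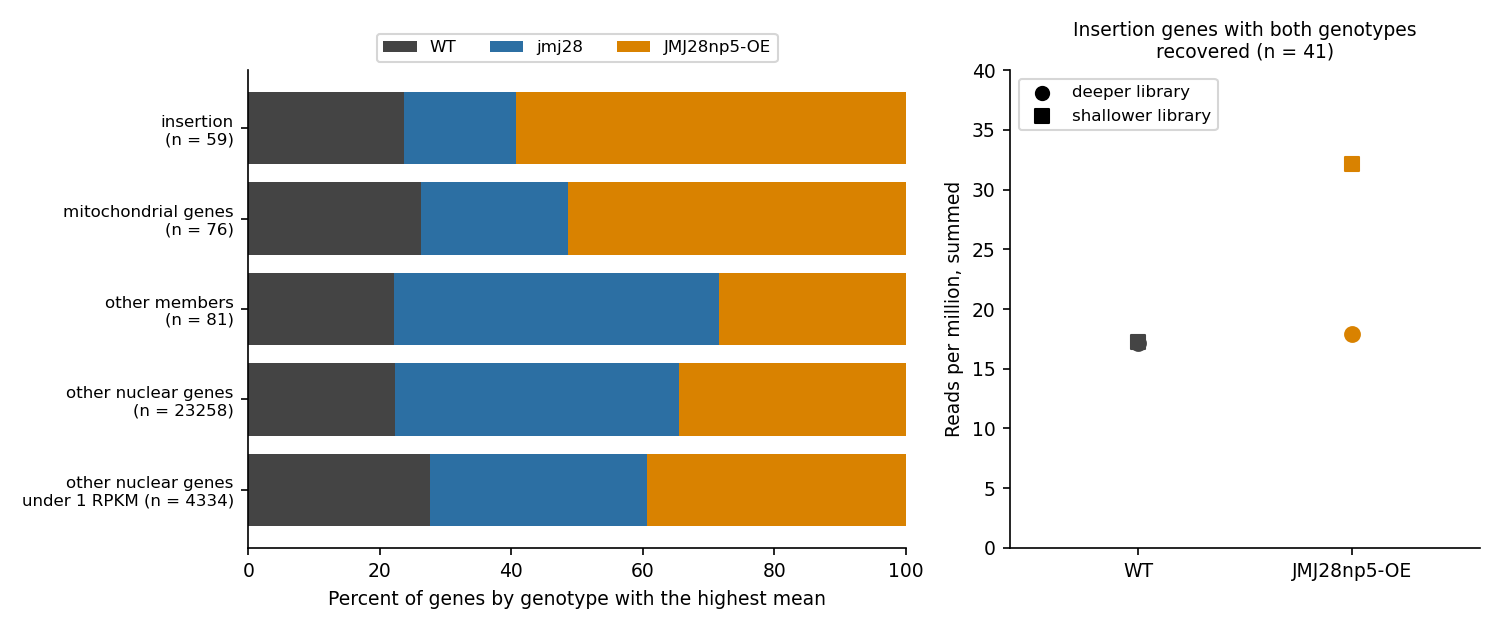
Left, percent of genes whose highest mean was in WT, jmj28 or JMJ28np5-OE, for insertion genes, mitochondrial genes, the other pericentromeric genes and other nuclear genes; right, RPM summed over 41 insertion genes in each WT and JMJ28np5-OE library. The shallower JMJ28np5-OE library, at 32.2 RPM, lies above the other 3, which lie between 17.2 and 17.9.

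AT2G07671 and AT2G07718 were the insertion genes called, both lower in jmj28 than in JMJ28np5-OE. AT2G07671 had 62 and 43 reads in WT (4.06 and 3.87 RPKM), 55 and 70 reads in JMJ28np5-OE (5.72 and 8.48 RPKM) and an implied mean of 3.299 RPKM in jmj28. AT2G07718 had 54 and 43 reads in WT (0.473 and 0.518 RPKM), 50 and 61 reads in JMJ28np5-OE (0.696 and 0.989 RPKM) and an implied mean of 0.387 RPKM in jmj28. In both genes each JMJ28np5-OE library was above each WT library, the shallower one more so. Their log2 fold changes were -1.16 and -1.18, with an FDR of 0.00498 and 0.00669, in the authors' deposited table. From their means the log2 ratios were -1.11 and -1.12, and -0.80 and -0.85 without the shallower JMJ28np5-OE library. AT2G07698 went the same way at a smaller size, with 33 and 74 reads in JMJ28np5-OE, a log2 fold change of -0.77 and an FDR of 0.256 in the authors' deposited table.

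For 13 insertion genes the deposited tables list a mitochondrial gene of the same function. In 12 of the pairs the nuclear locus had the higher level. The mitochondrial ATP9, NAD3 and COB loci are listed at 0, while their nuclear copies had 7.10, 0.507 and 0.659 RPKM. The exception was NAD4, with 0.858 RPKM against 0.843 RPKM for AT2G07718. The deposited mitochondrial loci follow another assembly than the TAIR10.1 mitochondrial genome matched above, and identity to that assembly was not measured. These levels therefore do not tell transcription of the nuclear copy from that of the mitochondrial gene.

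Of 14 genes grouped by role, in groups of 1 to 3, 4 (28.6%) were called in jmj28 against JMJ28np5-OE in the authors' deposited table, and 0 in the other comparisons. That table called 11.4% of all tested genes and 13.9% of the other nuclear genes of at least 1 RPKM. Of the 81 genes outside the insertion it called 11.1%. The role lists were chosen with earlier results known, so their share does not stand for the windows. XTH4 and PPT1 were also counted among the 10 most abundant genes. The lists do not cover all genes of a role in the windows. Among genes of lipids and sterols, CAS1, the cycloartenol synthase of sterol synthesis, and PLA2-ALPHA, a secreted phospholipase, were called in none of the comparisons. Among cell wall genes 1 of 3 was called, XTH4, and XGD1, which adds xylose to pectin, had a log2 fold change of -0.08 in jmj28 against JMJ28np5-OE in the authors' deposited table. Among plastid genes PPT1 was called and RPS1 was not. Of the pumps and transporters, VHA-H and ABCC13 (listed as ATMRP11) were not called. Of the nuclear genes HAT was called, and AT4G07410 (PCN), a WD-40 repeat gene, was not. Of the other metabolism genes, PFD1, of a chaperone for cytoskeletal proteins, and TH2, of thiamine metabolism, were not called. PBL17, the 1 gene of the defence list that lies in the windows, was called.

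ARP6, a subunit of the complex that places histone H2A.Z into chromatin, is also a pericentromeric gene. It had 17.3 and 19.2 RPKM in WT, 18.9 and 17.9 in jmj28 and an implied 16.8 RPKM in JMJ28np5-OE. The WT and jmj28 libraries overlapped, and the gene was called in no comparison.

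Genes that set, remove or read heterochromatin marks were also examined, wherever they lie. Of a list of 31 such genes, the authors' deposited tables call JMJ28 alone in jmj28 against WT and in JMJ28np5-OE against WT. In jmj28 against JMJ28np5-OE they call JMJ28 lower and 3 genes higher, or 12.9% of the list, near the 11.4% of all tested genes. JMJ28 is the gene altered in these lines, so its call enters that share by design. The 3 higher genes were CMT2, a DNA methyltransferase of heterochromatin, with a log2 fold change of 0.40 in the authors' deposited table, HTA6, a histone H2A.W gene, with 0.47, and ORTH2 (VIM1), which acts in maintaining DNA methylation, with 0.54. The median log2 fold change of the list was 0.00, -0.11 and 0.15 in the 3 comparisons of the authors' deposited tables.

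Of a list of 6 loci chosen as silenced, 4 had a test, and not all of them were silent in WT. BNS (listed as APC13) had 6.55 and 6.64 RPKM in the deeper and the shallower WT library and was called in no comparison. FWA (listed as HDG6) and SDC had a single read each, in a jmj28 library, and 0 reads in WT and JMJ28np5-OE. A count of 0 in a library allows up to 3 reads, so no change can be read from them. QQS, an orphan gene of starch metabolism, was lower in jmj28 than in JMJ28np5-OE, with a log2 fold change of -1.40 and an FDR of 0.026 in the authors' deposited table, and was not called in the other comparisons. It had 2.66 and 3.36 RPKM in WT, 3.06 and 6.43 in JMJ28np5-OE and an implied 1.87 RPKM in jmj28. The deeper JMJ28np5-OE library lay between the WT libraries, and the shallower one above both.

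Moving a border of the windows by 1 gene would have changed the called genes at the start of the chromosome 3 window alone. Moved inward there, it would have dropped TPS30, which had the largest change of the called genes. Counts for larger moves are given further on. Of the 20 genes just inside or just outside the 10 borders, TPS30 was the 1 gene called in any comparison. Just outside, levels in RPKM ran from 0.0418 for AT4G05631 to 36.9 for VPS2.1, and just inside from 0.0248 for AT2G06562 to 49.0 for SKS6.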

How the data were processed

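RNA of seedlings was sequenced as paired reads of 150 bases from TruSeq libraries, per the labels' protocols; the submitters' processing notes name TAIR10, and for the aligner, counter and test the sources used here give no name. Each of the 3 deposited tables compares a pair of genotypes. Per the file headers, its columns are the log2 fold change, the signed fold change (a score of -1 or below or of 1 or above), the p-value, and that p-value adjusted as FDR and by Bonferroni. The authors deposited 1 level per gene in RPKM, the mean of whichever genotype was higher. Their FDR was adjusted over 34262 listed genes, of which 10720 had no reads.

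The tables give no value for single libraries, so the authors' deposited test, FDR under 0.05, is the result of each comparison; no set test was run. Each genotype mean is an average over 2 libraries of whole reads, divided by exon length and by the library's total. Reads and totals were solved from the means (98.9% of the highest and second-highest means). On simulated data 8999 of 9000 means gave the true reads. The simulation used the same formula, exon lengths and library totals as the solving step. It thus checks that step alone, and not whether those lengths and totals hold for the deposited means. Over genes above 5 RPKM the deposited log2 fold change differed from the log2 ratio of recovered means by a constant of -0.03, 0.02 and -0.06, with an SD of 0.0079, 0.0098 and 0.0060, and this constant was taken off when the lowest mean was implied; below 0.5 RPKM the SD was 0.13 to 0.18.

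Exons of the window genes were matched to the mitochondrial genome of TAIR10.1 with blastn 2.17.0; 32532 of 32548 genes found in that annotation had the deposited start and end. Sequences and gene products are from RefSeq, whose mitochondrial genome is another assembly than that of the deposited mitochondrial genes. No count includes CO or FT, whose deposited p-values equal those of other genes. The members, gene lists and borders were chosen with earlier results of these data known. Genes were named where called, among the 10 highest, the 2 highest of a window, on a list or at a border. ARP6, AT2G07675, AT2G07698, AT2G07725 and AT3G32040 were named after their values were seen. Analysis used Python 3.11.15, numpy 2.4.6 and pandas 2.3.3.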

Additional observations from a re-analysis of the deposited data

How the results depend on the processing

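No paired analysis was possible because the deposited columns hold comparisons and genotype means with no replicate number. For jmj28 against WT the count of 0 called genes became 3 at an unadjusted p under 0.05 with at least a 1.5-fold change, 1 with Benjamini-Hochberg adjustment over genes with reads or over genes of at least 1 RPKM (TPS30), and 3 with windows wider by 0.5 Mb at each end. For JMJ28np5-OE against WT the count of 1 became 8 at an unadjusted p under 0.05 with a 1.5-fold change, 0 by Bonferroni, 2 with either adjustment over fewer genes, 0 with windows narrower by 0.2 Mb at each end, 2 with wider windows and 0 without the chromosome 5 window. For jmj28 against JMJ28np5-OE the count of 11 became 5 when a 1.5-fold change was also asked, 1 by Bonferroni (PPT1), 33 with wider windows, which hold 337 genes, and 5 without the chromosome 2 window. Leaving out 1 recovered library, the calls still at least 1.5-fold numbered 0 to 1 in JMJ28np5-OE against WT (0 without the deeper JMJ28np5-OE library) and 4 to 5 in jmj28 against JMJ28np5-OE. At an unadjusted p under 0.05 with a 1.5-fold change the count in jmj28 against JMJ28np5-OE was also 11, but split as 2 higher and 9 lower, against 6 higher and 5 lower. At the deposited FDR, 1.3%, 3.55% and 11.4% of all tested genes were called in the 3 comparisons, whatever the windows. For the other rules the share over all genes is not given here. These counts thus show no gain or loss of calls against other genes. The median log2 fold changes over all 140 genes (-0.04, 0.02 and -0.09) kept to within the spread under every alternative run. Of 50 values of single genes, 46 moved by less than the spread, 4 moved and 0 reversed. The values without 1 library carry the limit given with the 11 called genes. Without the shallower JMJ28np5-OE library the log2 ratio of means went from -1.11 to -0.80 for AT2G07671, from -1.12 to -0.85 for AT2G07718 and from -0.47 to -0.26 for XTH4. With a pseudocount of 1 RPKM it went from -1.12 to -0.41 for AT2G07718 and from 2.35 to 1.03 for TPS30. The cause was not tested.

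At these depths 1 read per kilobase is 0.0508 to 0.094 RPKM, so most insertion genes rest on a few reads, and their fold changes depend on the authors' fit. The libraries of the lowest genotype of a gene were not recovered, so whether groups overlap is known for 1 of the 12 calls. Reads shared with the mitochondrial genome, or between genes that overlap, cannot be assigned from these tables.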
